A study of Rattus norvegicus with 98 samples.

Results

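The 10 genes described here mark antigen-presenting cells and tissue macrophages and were followed in the nasal epithelium of rats exposed to formaldehyde, over every dose, route and time that was measured. They were taken by name: the MHC class II genes RT1-Da, RT1-Ba, RT1-Bb and Cd74, and the macrophage and dendritic cell genes Cd163, Lyve1, Mrc1, Cd68, Csf1r and Clec4a. That choice was made with earlier results of these data known. Every probe set annotated to 1 of these 10 genes was used, which gave 15 of the 31042 probe sets tested, for 10 of the 14217 genes with a symbol of their own. Where a gene has several probe sets its name alone stands for the one of highest mean signal, and the others are named by their identifiers. RT1-Ba had 4 probe sets, RT1-Bb and Lyve1 had 2 each, and the remaining genes had 1 each.

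MHC class II molecules hold peptides from taken-up protein on the cell surface, where CD4 T cells read them. Each molecule is a pair of an alpha and a beta chain: RT1-Da encodes the alpha chain of the rat D molecule, and RT1-Ba and RT1-Bb encode the alpha and beta chains of the rat B molecule. Cd74, the invariant chain, occupies the groove of a newly made molecule and guides it to the compartment where peptide is loaded. Professional antigen-presenting cells (dendritic cells, macrophages and B cells) make these genes all the time, and epithelial cells can make them under interferon gamma. Csf1r is the receptor for the growth factors Csf1 and Il34 on which most tissue macrophages depend. Cd163, the receptor that clears haemoglobin bound to haptoglobin, and Mrc1, the mannose receptor, are common on resident macrophages. Lyve1 binds hyaluronan on a subset of perivascular macrophages and on lymphatic endothelium. Cd68 is a glycoprotein of late endosomes and lysosomes, and Clec4a is a C-type lectin of dendritic cells, monocytes and macrophages.

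The animals were male F344/NCrl rats, 8 weeks old, each measured on 1 Affymetrix Rat230_2 array, 98 arrays in all. Formaldehyde was inhaled with the whole body for 6 h a day on 5 days a week at 0.7, 2 or 6 ppm or at 0 ppm (air), and rats were collected at 6 h, 24 h, 5 days, 8 days and 19 days, which filled 82 arrays called set 1 here. The other 16 arrays, set 2, came from the 6 h time point of 15 ppm and its air rats, and from rats with formaldehyde (400 mM) or its vehicle, water, put into the nostrils, 40 ul each, also taken at 6 h. There were 4 rats in 22 groups and 5 in the groups at 2 ppm for 5 days and in air for 8 days. Epithelial cells of the nasoturbinate and lateral meatus were freed by protease digestion, and per the labels they were mainly transitional epithelium with some respiratory epithelium. The mean log2 signal over the 12 measured genes of a nasal epithelium list (keratins, cadherin and secretory and ciliated cell genes) lay between 10.86 and 11.80 in every rat. In bulk samples such as these, fewer cells of a type and less RNA per cell cannot be told apart.

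The promoters of the 3 RT1 genes are shown because the genes vary together in the results below, and because class II promoters are known to share an X box, bound by the RFX complex, and a Y box, bound by NF-Y. The sequences are those of RefSeq on the GRCr8 assembly, whose animal is not an F344/NCrl rat, from 250 bases before to 50 bases after the start of each gene. RT1-Da lies at chr20:4515165-4515464 on the plus strand, RT1-Ba at chr20:4576807-4577106 on the plus strand and RT1-Bb at chr20:4604069-4604368 on the minus strand. Capitals mark the Y box letters CTGATTGG and the X box letters GCAACNG.
RT1-Da: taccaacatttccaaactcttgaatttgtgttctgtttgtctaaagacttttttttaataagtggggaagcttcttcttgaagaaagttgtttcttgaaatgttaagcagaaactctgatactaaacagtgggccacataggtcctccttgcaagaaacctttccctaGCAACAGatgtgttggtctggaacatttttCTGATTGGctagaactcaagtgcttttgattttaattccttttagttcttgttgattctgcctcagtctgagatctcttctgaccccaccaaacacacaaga
RT1-Ba: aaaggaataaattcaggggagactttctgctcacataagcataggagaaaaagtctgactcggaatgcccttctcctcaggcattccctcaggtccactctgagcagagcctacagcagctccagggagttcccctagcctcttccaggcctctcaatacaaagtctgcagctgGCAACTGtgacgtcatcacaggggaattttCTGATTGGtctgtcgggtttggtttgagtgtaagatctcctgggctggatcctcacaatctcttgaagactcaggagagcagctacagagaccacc
RT1-Bb: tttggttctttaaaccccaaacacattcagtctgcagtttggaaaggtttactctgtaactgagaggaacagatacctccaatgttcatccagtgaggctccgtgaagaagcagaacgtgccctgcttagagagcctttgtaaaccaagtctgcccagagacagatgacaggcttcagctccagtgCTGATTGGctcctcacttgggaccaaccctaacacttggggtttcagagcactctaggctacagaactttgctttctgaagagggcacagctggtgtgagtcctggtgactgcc

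Both strands were searched, and the letters of the 2 motifs did not overlap each other in these windows. The Y box letters started at base 199 of the window in RT1-Da, at base 205 in RT1-Ba and at base 187 in RT1-Bb, and the X box letters at base 169 in RT1-Da and at base 175 in RT1-Ba. RT1-Bb held no X box letters. Of the other 7 members, Cd68 held the Y box letters, on the opposite strand. Cd74 held neither motif in these exact letters, and forms of the boxes with other letters were not searched for. The r with RT1-Da was 0.93 for Cd74 and 0.79 for RT1-Bb (below). Among 33469 rat promoters of the same length, 3.5% held the Y box letters, 12.2% the X box letters and 0.394% both. In RT1-Da and RT1-Ba the Y box letters began 30 bases after the X box letters began. That spacing, looked up after both positions were known, occurred in 3 promoters of the 33469: those of RT1-Da, RT1-Ba and RT1-Ha, a class II relative with no probe set in the tested table. A match of letters is a description of these windows and was not tested as a binding site.

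Over the 98 arrays the log2 signal of RT1-Da lay between 11.62 and 13.13, that of RT1-Ba between 10.11 and 12.15, that of RT1-Bb between 10.16 and 12.66 and that of Cd74 between 11.50 and 13.09. The range was 3.56 to 5.42 for Cd163, 4.32 to 7.61 for Lyve1 and 4.41 to 7.73 for Mrc1. It was 6.60 to 8.11 for Cd68, 7.24 to 8.73 for Csf1r and 4.46 to 6.12 for Clec4a. Lyve1 and Mrc1 therefore had the widest spread between rats among the 10 genes and Csf1r and Cd68 were among the narrowest. Signals of different probe sets are not levels on a common scale, so genes are compared here only by their differences between groups. The file gives no detection calls, and whether a dim probe set such as that of Cd163 stood above background could not be read from it.

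Each dose was set against its own control in 17 comparisons, fitted in 1 limma model over the 98 arrays, and a probe set was called at a Benjamini-Hochberg adjusted p under 0.05 over all 31042 probe sets. Where few passed, counts at an unadjusted p under 0.05 are given too, in brackets, with the share of all probe sets that reached it. Among the 10 highest-signal probe sets, RT1-Da, Cd163, Cd68 and Clec4a were each called in 1 of the 17 comparisons, and RT1-Ba, RT1-Bb, Cd74, Lyve1, Mrc1 and Csf1r in none. Over the 17 comparisons the log2 change of RT1-Da ran between −0.73 (6 ppm at 6 h) and +0.17 (instilled formaldehyde), and it lay below 0 in 11 of them. RT1-Ba reached −0.80 and Cd74 −0.54, both at 6 ppm and 6 h. Lyve1 had the highest change of all, +1.20 at 2 ppm and 5 days, where Mrc1 reached +0.99. Csf1r stayed within −0.45 and +0.39.

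**Figure D1:**
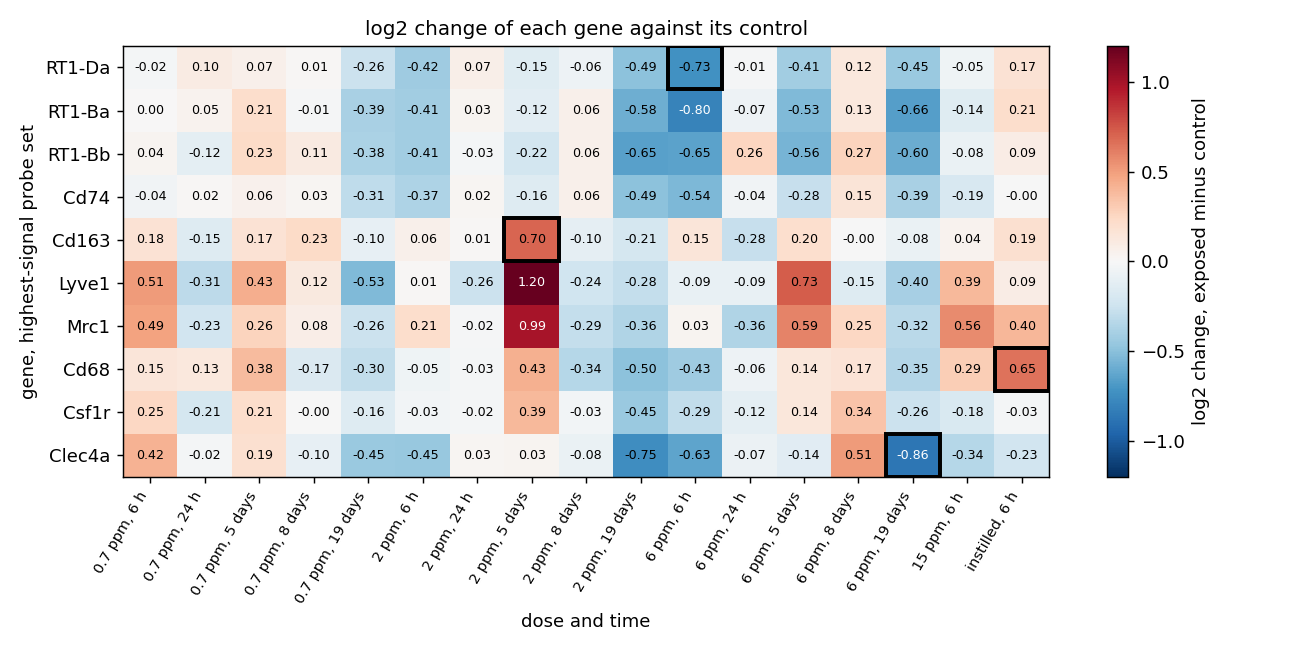
Log2 change of each gene (down the page, highest-signal probe set) in each of the 17 comparisons of a dose with its own control (across), written in each cell and coloured blue below 0 and red above 0. Black frames mark the 4 cells called in limma: RT1-Da at 6 ppm and 6 h, Cd163 at 2 ppm and 5 days, Clec4a at 6 ppm and 19 days and Cd68 after instillation. The doses at 1 time share the same air rats.

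At 6 h of 6 ppm the MHC class II genes had lower signals than in air. RT1-Da, the alpha chain of the D molecule, measured 11.62, 11.78, 12.20 and 12.36 in the 6 ppm rats, against 12.61, 12.64, 12.69 and 12.94 in the air rats. Every 6 ppm rat lay below every air rat, and 2 of the 4 lay clearly below the rest. The mean was 11.99 ± 0.35 in 6 ppm rats and 12.72 ± 0.15 in air rats (SD, n = 4 each), a log2 change of −0.73 ± 0.17 (SE, 95% interval −1.07 to −0.38), which is 1.66-fold lower (adjusted p = 0.0386, limma). RT1-Da was the only called member of the 15 probe sets at this dose and time, where 0.245% of all probe sets were called (6 of 15 members and 12.6% of all at an unadjusted p under 0.05). The partner genes lay lower by like amounts without passing the threshold.

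RT1-Ba, the alpha chain of the B molecule, measured 10.11, 10.45, 10.89 and 11.03 in 6 ppm rats, against 11.26, 11.36, 11.37 and 11.70 in air rats (change −0.80 ± 0.21, adjusted p = 0.0785). RT1-Bb, its beta chain, measured 10.79, 10.88, 11.31 and 11.37 in 6 ppm rats, against 11.46, 11.68, 11.76 and 12.04 in air rats (change −0.65 ± 0.29, adjusted p = 0.328). Cd74, the invariant chain, measured 11.74, 11.84, 12.19 and 12.26 in 6 ppm rats, against 12.41, 12.46, 12.56 and 12.76 in air rats (change −0.54 ± 0.15, adjusted p = 0.104). None of these 3 genes had overlapping groups. With Cd68, that made 5 of the 15 probe sets whose 6 ppm rats all lay below the air rats, where 4.52% of all probe sets were separated in that direction. The median change was −0.69 over the 4 class II genes and 0.01 over all probe sets.

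No macrophage or dendritic cell gene was called at 6 ppm and 6 h. Cd68, the lysosomal glycoprotein, measured 6.60, 6.70, 6.75 and 6.87 in 6 ppm rats, against 6.92, 7.21, 7.25 and 7.27 in air rats (change −0.43 ± 0.20, adjusted p = 0.369). Clec4a, the dendritic cell lectin, measured 4.47, 4.62, 4.69 and 5.16 in 6 ppm rats, against 5.14, 5.27, 5.42 and 5.62 in air rats, with 1 overlapping rat (change −0.63 ± 0.22, adjusted p = 0.189). Csf1r differed by −0.29, Lyve1 by −0.09, Mrc1 by +0.03 and Cd163 by +0.15, all with overlapping groups.

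**Figure D2:**
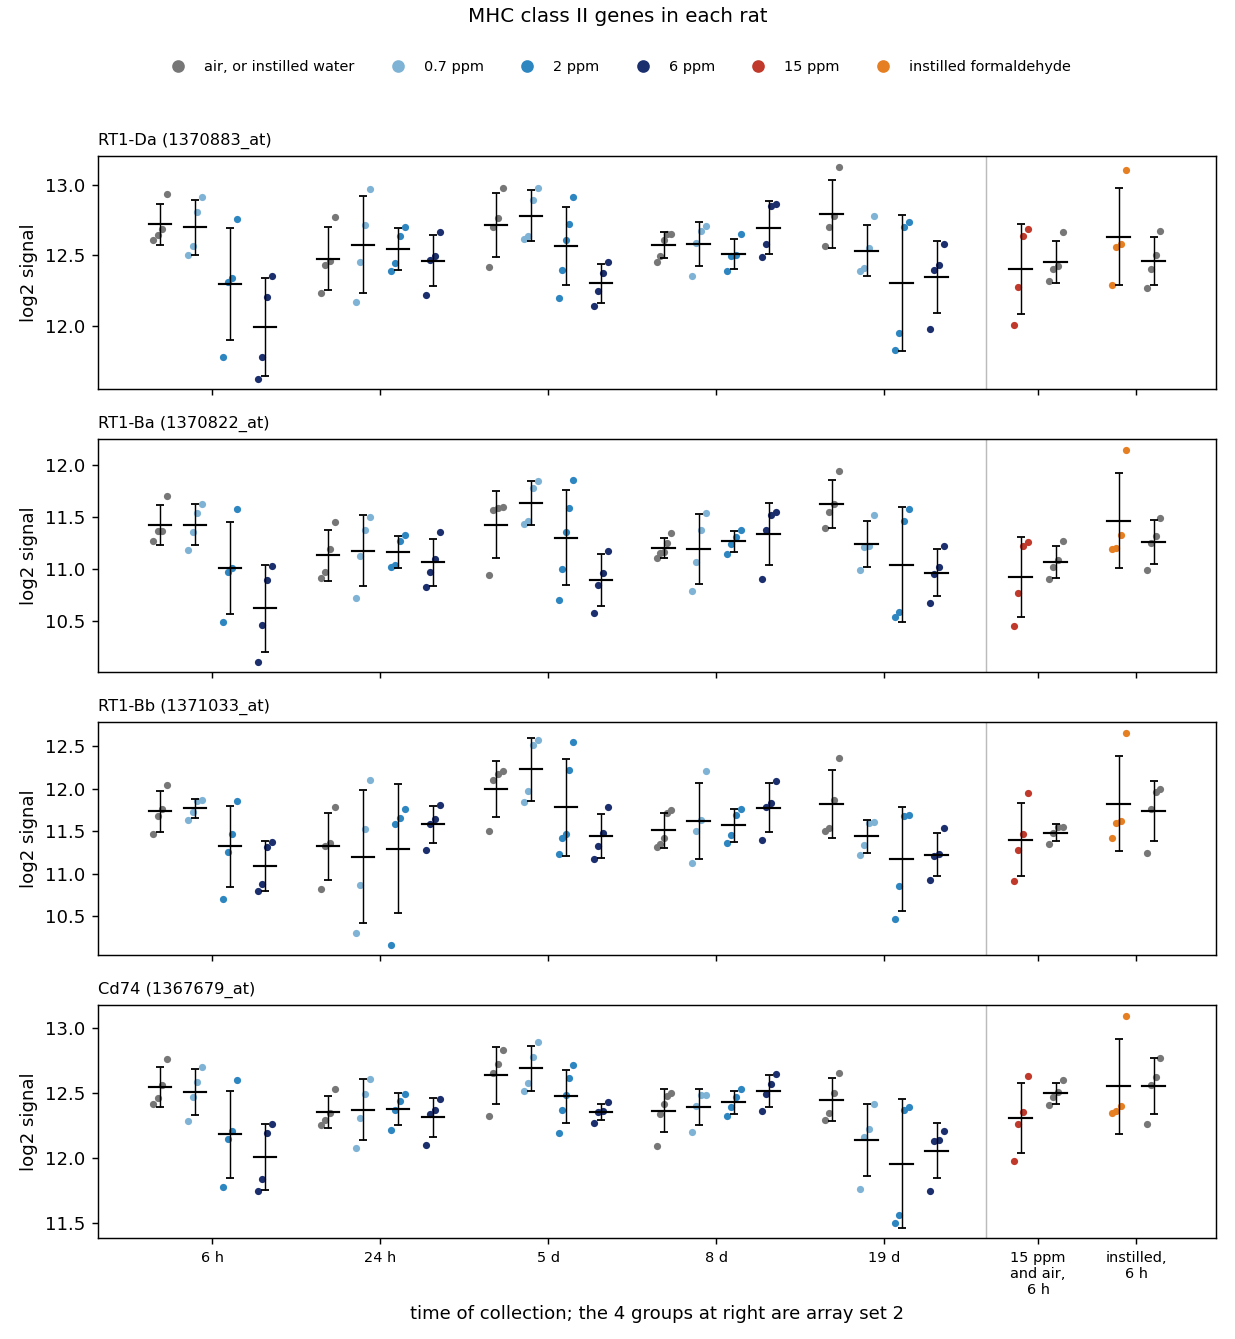
Log2 signal of RT1-Da, RT1-Ba, RT1-Bb and Cd74 in each rat (points) by time and dose, with the group mean and SD (black bars), doses in rising order within a time and array set 2 to the right of the grey line. At 6 h the 4 rats at 6 ppm lay below the 4 air rats of set 1 in all 4 panels, and at 24 h and 8 days the groups overlapped in all 4.

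The call of RT1-Da at 6 ppm and 6 h rested on 6 of the 8 rats. In fits that left out 1 rat it was −0.66 without 6 ppm rat 284 (adjusted p = 0.160), −0.61 without 6 ppm rat 286 (adjusted p = 0.144) and between −0.66 and −0.77 without any 1 air rat (adjusted p 0.0780 to 0.131), and it passed the threshold only without 6 ppm rat 283 or 287. RNA integrity numbers were 7.7 to 7.8 in the 6 ppm rats that have one and 7.8 to 8.3 in the air rats. With the number as a covariate, over the 85 arrays that have one, the change was −0.57 (adjusted p = 0.283). Rat 286 has no number and drops out of that fit, and leaving it out alone gave −0.61. The part of the covariate in that shift was not tested. In a fit of only these 8 arrays the adjusted p was 0.141.

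Summed lists of leukocyte genes were compared in the same rats. The mean log2 signal of 10 genes found in all leukocytes was 7.69 to 8.15 in 6 ppm rats and 8.18 to 8.44 in air rats, with no overlap. A list of 12 T and NK cell genes gave 5.40 to 5.80 in 6 ppm rats and 5.78 to 5.88 in air rats, a list of 8 dendritic cell genes 5.80 to 6.03 in 6 ppm rats and 6.10 to 6.28 in air rats, and a list of 25 macrophage genes 6.46 to 6.89 in 6 ppm rats and 6.82 to 7.03 in air rats. The neutrophil list of 7 genes overlapped, with 6.03 to 6.66 in 6 ppm rats and 5.70 to 6.69 in air rats. The 12 epithelial genes gave 11.17 to 11.42 in 6 ppm rats against 11.35 to 11.58 in air rats. No member of these lists was called, and the part of leukocyte content in the class II result was not tested. The class II pathway list holds the peptide loading factors, the promoter factors and the costimulators. In it, 0 of 18 genes were called in limma and 4 had an unadjusted p under 0.05, beside 12.6% of all probe sets (median −0.16, against 0.01 over all probe sets). Its transactivator Ciita, looked up after that count was seen, differed by −0.76 ± 0.25 (adjusted p = 0.169). The mean of the class I pathway list (12 genes) was 8.06 to 8.44 in 6 ppm rats and 8.45 to 8.58 in air rats, without overlap. Lower signals at this dose and time were therefore not particular to class II.

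Lower doses at 6 h gave no call. At 2 ppm RT1-Da measured 11.78, 12.31, 12.34 and 12.76, against the same 4 air rats, so 1 rat lay above 3 of the air rats (change −0.42 ± 0.17, adjusted p = 0.760). Cd74 differed by −0.37 and Clec4a by −0.45 there. Of the 15 probe sets 0 were called in limma at 2 ppm (3 unadjusted, as were 5.61% of all), where 0.00322% of all were called. At 0.7 ppm RT1-Da differed by −0.02, and 0 probe sets were called (0 unadjusted, against 1.32% of all), with 0% of all called. These comparisons share their controls with 6 ppm, so their changes are not independent of each other.

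The class II difference at 6 ppm was not seen at every later time. At the 24 h time point of 6 ppm RT1-Da differed from air by −0.01, and 0 of 15 probe sets were called in limma (3 unadjusted, as were 7.57% of all), where 0.00322% of all were. At the lower doses 0 were called at 24 h, 0 of 15 unadjusted at 2 ppm (5.64% of all) and 1 at 0.7 ppm (6.09% of all), where 0% of all were called at either dose. At 5 days RT1-Da measured 12.14, 12.25, 12.37 and 12.45 in 6 ppm rats, against 12.42, 12.71, 12.76 and 12.98 in air rats (change −0.41, adjusted p = 0.604), and RT1-Ba differed by −0.53 (adjusted p = 0.558). At that time 0 probe sets were called (4 unadjusted, as were 7.24% of all), where 0.119% of all were. At 8 days 8 of the 10 genes had means above air, RT1-Da by +0.12 and Clec4a by +0.51, with 0 called (2 unadjusted, as were 6.14% of all) and 0.029% of all called. At 0.7 ppm and 8 days 0 were called (1 unadjusted, as were 3.29% of all), with 0% of all called. Tested directly, the difference between the 5 effects of 6 ppm gave 0 calls among the 15 probe sets (6 unadjusted, as were 6.1% of all), where 0.0129% of all were called, and RT1-Da had an adjusted p of 0.563 in that F-test.

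Averaged over the 5 times, 3 class II genes fell at 6 ppm. RT1-Ba fell by 0.39 ± 0.09 (1.31-fold lower, adjusted p = 0.00636), RT1-Da by 0.30 ± 0.08 (1.23-fold lower, adjusted p = 0.0110) and Cd74 by 0.22 ± 0.07 (1.16-fold lower, adjusted p = 0.0366), on the log2 scale. RT1-Bb differed by −0.26 (adjusted p = 0.215) and Clec4a by −0.24 (adjusted p = 0.126), and the median over the 6 macrophage and dendritic cell genes was −0.02. In this comparison 6.37% of all probe sets were called, 3.54% lower and 2.82% higher (7 of 15 members and 22.6% of all at an unadjusted p under 0.05). The calls rested on the times of 6 h and 19 days: without 6 h RT1-Ba differed by −0.28 (adjusted p = 0.147) and RT1-Da by −0.19 (adjusted p = 0.258), and without 19 days RT1-Ba differed by −0.32 (adjusted p = 0.0879) and RT1-Da by −0.26 (adjusted p = 0.0904). Without 5 days RT1-Ba kept its call (adjusted p = 0.0407) and RT1-Da did not (adjusted p = 0.0586). Cd74 lost its call without 6 h (−0.14), without 5 days (−0.20) and without 19 days (−0.18). With the RNA integrity number as a covariate none of the 3 passed (RT1-Ba −0.34, adjusted p = 0.0504, RT1-Da −0.27, adjusted p = 0.0517, and Cd74 −0.19, adjusted p = 0.127). That fit left out the rats without a number, among them 6 ppm rats 286, 288, 296, 300 and 308. The covariate and the lost rats cannot be told apart in it. In fits that left out 1 of the 41 rats, RT1-Da and RT1-Ba were called in 41 of 41 and Cd74 in 29 of 41.

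Probe sets of RT1-Ba did not share 1 direction. Beside the fall of 1370822_at, the probe sets 1381593_x_at and 1392334_at rose at 6 ppm over the 5 times, by 0.16 ± 0.05 (adjusted p = 0.0225) and 0.15 ± 0.04 (adjusted p = 0.0295), and 1377334_at differed by +0.02. Both rises lost their calls without 6 h, 24 h or 19 days. The rise of 1381593_x_at lost its call without 8 days too (adjusted p = 0.0529). Both rises also lost their calls in the fit with the RNA integrity number, which lacks the rats without a number (adjusted p = 0.231 for 1381593_x_at and 0.208 for 1392334_at). Within groups, the correlation with 1370822_at over 98 arrays was 0.16 for 1381593_x_at, 0.08 for 1392334_at and 0.32 for 1377334_at. The suffix x_at marks a probe set whose probes may bind other transcripts. Which transcripts the 3 dimmer probe sets measured was not tested, and of the 5 calls in this comparison these 2 rises are therefore given apart. The 2 probe sets of RT1-Bb did not vary together either (r = −0.19), whereas those of Lyve1 did (r = 0.85).

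In the class II pathway list at 6 ppm over the 5 times, 3 of 18 measured genes fell and 0 rose: RT1-Db1, a beta chain of the D molecule, by 0.41 (adjusted p = 0.0117), and RT1-DMb and RT1-DMa, the chains of the peptide-loading molecule DM, by 0.26 (adjusted p = 0.0376) and 0.22 (adjusted p = 0.0498). Their share is set beside 3.54% of all probe sets lower, and the median of the list was −0.12. The class I list had 1 of 12 genes lower (RT1-M3-1, adjusted p = 0.0451), and of 4 ligands for the Csf receptors Csf1 rose by 0.19 (adjusted p = 0.0194). In the lists of macrophages (25 genes), dendritic cells (8), all leukocytes (10), T and NK cells (12), B cells (6) and interferon gamma signalling (12), 0 genes were called. In that order 2, 1, 2, 4, 3 and 1 had an unadjusted p under 0.05, beside 22.6% of all probe sets.

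Pooled over the 5 times, 2 ppm gave 0 calls among the 15 probe sets in limma (7 unadjusted, as were 10.7% of all), where 0.361% of all were called. RT1-Da differed by −0.21 (adjusted p = 0.230), Cd74 by −0.19 (adjusted p = 0.236) and Clec4a by −0.24 (adjusted p = 0.301). At 0.7 ppm 0 were called (0 unadjusted, against 2.84% of all), and 0% of all were called.

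At 19 days, the longest exposure, all 10 genes had lower means than in air at each of 0.7, 2 and 6 ppm. The median change over the 10 genes was −0.30 at 0.7 ppm, −0.49 at 2 ppm and −0.39 at 6 ppm, beside 0.00, −0.02 and −0.00 over all probe sets. The 3 doses were set against the same 4 air rats, so the 3 medians are not independent. Only Clec4a at 6 ppm was called. Of the 15 probe sets, 0 were called in limma at 0.7 ppm (2 unadjusted, as were 2.64% of all) and 0 at 2 ppm (8 unadjusted, as were 8.64% of all), where 0% of all probe sets were called at either dose. At 6 ppm 1 was called (6 unadjusted, as were 11.8% of all), where 0.412% of all were called.

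Clec4a measured 5.20, 5.39, 5.61 and 5.92 at 0.7 ppm, 4.77, 5.01, 5.43 and 5.71 at 2 ppm and 4.87, 4.93, 5.18 and 5.47 at 6 ppm, against 5.63, 6.05, 6.10 and 6.12 in air. All 4 rats at 6 ppm lay below all air rats, while 1 rat at each lower dose lay above the lowest air rat. The change was −0.45 at 0.7 ppm, −0.75 at 2 ppm (adjusted p = 0.424) and −0.86 ± 0.22 at 6 ppm (SE, 95% interval −1.30 to −0.42), which is 1.82-fold lower (adjusted p = 0.0498). In the fits that left out 1 rat this call held without 6 ppm rat 309 (adjusted p = 0.0349) or air rat 77 (adjusted p = 0.0365). It was lost without 6 ppm rat 310 (−0.89, adjusted p = 0.0617), 312 (−0.80, adjusted p = 0.204) or 308 (−0.78, adjusted p = 0.110). It was also lost without air rat 75 (−0.82, adjusted p = 0.161), 76 (−0.84, adjusted p = 0.0949) or 73 (−0.82, adjusted p = 0.169). It was lost as well after cyclic loess (adjusted p = 0.0604), with a trended prior (0.05002) and in a fit of only these 8 arrays (0.157). With the RNA integrity number as a covariate it was lost too (−0.78, adjusted p = 0.0987). Rat 308 has no such number and drops out of that fit, whose change equals the −0.78 found without 308 alone. The air rats of 19 days were themselves high for this gene: Clec4a averaged 5.98 ± 0.23 in air at 19 days, beside 5.37 at 6 h, 5.08 at 24 h, 5.19 at 5 days and 5.13 at 8 days.

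The class II genes at 19 days split the 2 ppm group. RT1-Da measured 12.39, 12.41, 12.55 and 12.78 at 0.7 ppm, 11.83, 11.95, 12.70 and 12.74 at 2 ppm and 11.98, 12.40, 12.43 and 12.58 at 6 ppm, against 12.56, 12.70, 12.78 and 13.13 in air. RT1-Ba measured 10.99, 11.21, 11.22 and 11.52 at 0.7 ppm, 10.54, 10.59, 11.46 and 11.58 at 2 ppm and 10.67, 10.95, 11.02 and 11.22 at 6 ppm, against 11.39, 11.55, 11.62 and 11.94 in air. The 2 rats 232 and 234 were the low pair at 2 ppm for both genes, and 230 and 233 were the high pair, which overlapped with air. Among the air groups the 19-day mean was the highest for RT1-Da (12.79, next 12.72 at 6 h) and RT1-Ba (11.63, next 11.42 at 6 h). For RT1-Bb and Cd74 it was not (11.82 and 12.45, beside 12.00 and 12.63 in air at 5 days).

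RT1-Bb measured 11.22, 11.33, 11.60 and 11.61 at 0.7 ppm, 10.47, 10.85, 11.68 and 11.69 at 2 ppm and 10.92, 11.21, 11.23 and 11.53 at 6 ppm, against 11.50, 11.54, 11.87 and 12.37 in air. Cd74 measured 11.76, 12.16, 12.22 and 12.42 at 0.7 ppm, 11.50, 11.56, 12.37 and 12.39 at 2 ppm and 11.74, 12.13, 12.13 and 12.21 at 6 ppm, against 12.29, 12.34, 12.50 and 12.65 in air. At 6 ppm RT1-Ba, Cd74 and Clec4a were the 3 probe sets of 15 with every rat below every air rat, where 4.62% of all probe sets were separated in that direction. The changes at 0.7, 2 and 6 ppm were −0.26, −0.49 and −0.45 for RT1-Da, −0.39, −0.58 and −0.66 for RT1-Ba, −0.38, −0.65 and −0.60 for RT1-Bb and −0.31, −0.49 and −0.39 for Cd74. None was called.

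Among the macrophage genes at 19 days, Cd68 measured 6.78, 7.07, 7.16 and 7.50 at 0.7 ppm, 6.78, 6.79, 6.96 and 7.18 at 2 ppm and 6.89, 6.97, 7.20 and 7.25 at 6 ppm, against 7.17, 7.41, 7.54 and 7.58 in air. Its groups overlapped at each dose, and the changes were −0.30, −0.50 and −0.35. Csf1r differed by −0.16, −0.45 and −0.26, Mrc1 by −0.26, −0.36 and −0.32, Lyve1 by −0.53, −0.28 and −0.40 and Cd163 by −0.10, −0.21 and −0.08. Counted over the 10 genes, 26 of the 40 values at 0.7 ppm, 22 of 40 at 2 ppm and 29 of 40 at 6 ppm lay below the lowest air rat of their gene, and 35, 39 and 37 lay below the air mean. Those 40 values come from 4 rats and from genes that vary together, so they are not 40 independent observations. All doses were set against the same 4 air rats. Values were counted in this way for the 10 genes only. Whether the counts exceed those of other probe sets was therefore not tested.

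**Figure D3:**
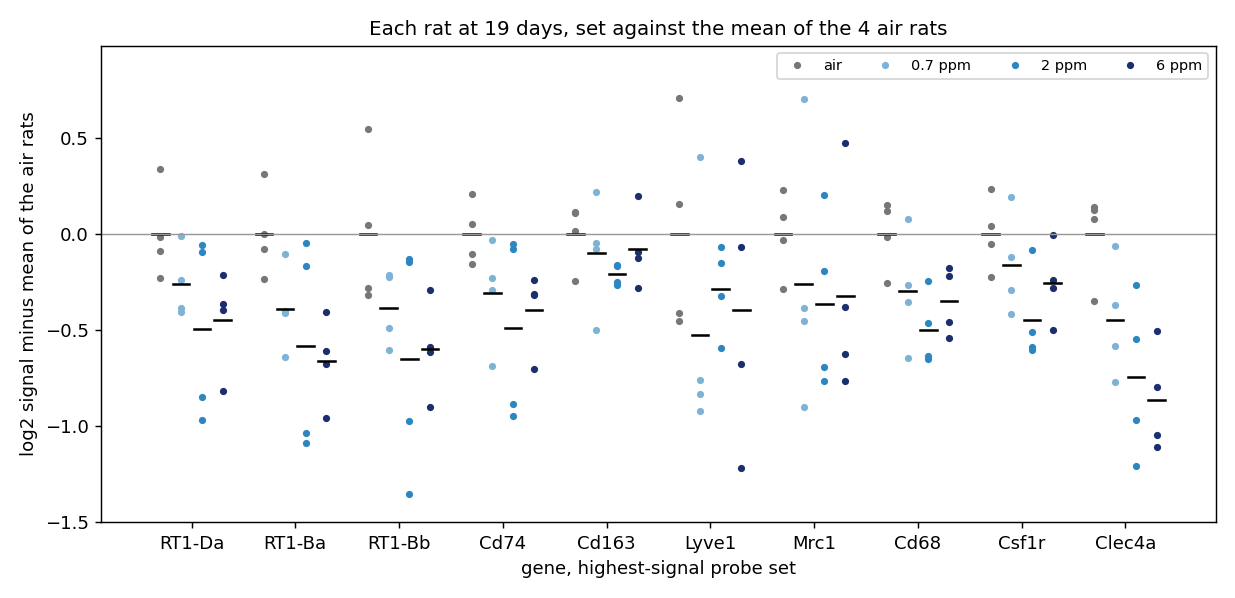
Log2 signal of each rat at 19 days minus the mean of the 4 air rats (vertical axis), by gene, for air, 0.7, 2 and 6 ppm in rising order, with group means as black bars. The 30 group means of the exposed rats lie below 0, down to −0.86 for Clec4a at 6 ppm, the 1 called difference.

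The 2 low doses at 19 days, as 1 group, gave 0 calls in limma (6 unadjusted), where 0% of all probe sets were called and 4.36% had an unadjusted p under 0.05. The 8 rats differed from the 4 air rats by −0.60 ± 0.19 for Clec4a, −0.49 ± 0.18 for RT1-Ba, −0.40 ± 0.13 for Cd74 and −0.38 ± 0.15 for RT1-Da, each with an adjusted p of 0.972. The difference of the 19-day effect from the mean effect at the other 4 times was tested as well. It gave 0 calls at 0.7 ppm (1 unadjusted), 0 at 2 ppm (7 unadjusted) and 0 at 6 ppm (2 unadjusted), where 0% of all probe sets were called at each dose, and 2.27%, 7.07% and 5.03% of all had an unadjusted p under 0.05. For Clec4a that difference was −0.63 ± 0.25 at 2 ppm (adjusted p = 0.678) and −0.78 ± 0.25 at 6 ppm (adjusted p = 0.880).

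The macrophage list was set beside the 19-day differences. The mean log2 signal of the 25 macrophage genes was 6.93 to 7.13 at 0.7 ppm, 6.54 to 7.07 at 2 ppm and 6.75 to 7.00 at 6 ppm, against 7.13 to 7.39 in the air rats of that time. In the air rats of the other 4 times of set 1 it was 6.59 to 7.18. The leukocyte list gave 8.10 to 8.61 at 0.7 ppm, 7.74 to 8.66 at 2 ppm and 8.08 to 8.48 at 6 ppm, against 8.23 to 9.08 in air. No gene of the 15 pathway and cell type lists was called at 19 days at any of the 3 doses in limma. An unadjusted p under 0.05 was reached by 12 of 25 macrophage genes at 2 ppm, beside 8.64% of all probe sets. At 6 ppm it was reached by 8 of 25, beside 11.8% of all. The part of the air rats' own level in the 19-day differences was not tested.

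Cd163 and the dimmer of the 2 Lyve1 probe sets rose at 5 days of 2 ppm. Cd163, the haemoglobin scavenger receptor, measured 4.22, 4.58, 4.95, 4.97 and 5.10 in the 2 ppm rats, against 3.94, 3.99, 4.13 and 4.20 in the air rats. The groups did not overlap, and the change was +0.70 ± 0.16 (SE, 95% interval 0.38 to 1.02), 1.62-fold higher (adjusted p = 0.0469, limma, n = 5 and 4). The Lyve1 probe set 1382732_at measured 4.54, 5.25, 5.78, 6.17 and 6.30 in 2 ppm rats, against 4.25, 4.33, 4.69 and 5.06 in air rats, with 1 overlapping rat. It rose by 1.03 ± 0.20 (95% interval 0.63 to 1.42), 2.04-fold (adjusted p = 0.0104). These were the 2 of 15 probe sets called, where 0.0741% of all were called, 0.0644% higher (6 of 15 members and 8.92% of all at an unadjusted p under 0.05). The count of 1 separated probe set, that of Cd163, stood beside 1.39% of all probe sets separated upward.

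The other Lyve1 probe set, 1382192_at, measured 5.37, 6.57, 7.45, 7.45 and 7.61 in 2 ppm rats, against 5.24, 5.27, 5.81 and 6.45 in air rats (change +1.20 ± 0.34, adjusted p = 0.200). Mrc1, the mannose receptor, measured 6.21, 6.67, 6.94, 7.42 and 7.73 in 2 ppm rats, against 5.49, 5.74, 6.26 and 6.53 in air rats (change +0.99 ± 0.31, adjusted p = 0.264). Both went the way of Cd163 without passing the threshold. Cd68 differed by +0.43 (adjusted p = 0.514), Csf1r by +0.39 (adjusted p = 0.580) and Clec4a by +0.03. The median change was +0.56 over the 6 macrophage and dendritic cell genes, −0.15 over the 4 class II genes and 0.01 over all probe sets.

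Single rats set these 2 calls. Without 2 ppm rat 216, the lowest, Cd163 differed by +0.84 (adjusted p = 0.00314) and Lyve1 1382732_at by +1.29 (adjusted p = 3.00e-05). The Cd163 call held in 2 of the 9 fits that left out 1 rat, without 216 or without 218 (adjusted p = 0.0496), and was lost in the other 7, with a change of +0.61 to +0.75 and an adjusted p of 0.0715 to 0.322. The Lyve1 call was lost without 2 ppm rat 215 (+0.89, adjusted p = 0.0587), without 2 ppm rat 217 (+0.85, adjusted p = 0.113) and without air rat 60 (+0.94, adjusted p = 0.126). In a fit of only the 9 arrays of this comparison neither passed (adjusted p = 0.805 for both), and after cyclic loess Cd163 did not (adjusted p = 0.0707).

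Lists of other cells' genes overlapped between the groups in the same rats. The mean of the macrophage list was 6.81 to 7.66 in 2 ppm rats and 6.80 to 7.16 in air rats, that of the leukocyte list 8.21 to 8.99 in 2 ppm rats and 8.35 to 8.73 in air rats, that of the endothelium list, which shares Lyve1's cells, 6.59 to 7.25 in 2 ppm rats and 6.50 to 7.05 in air rats, and that of the stroma list 10.23 to 11.32 in 2 ppm rats and 10.24 to 10.62 in air rats. No gene of any list was called in limma (6 of 25 macrophage, 1 of 12 endothelial and 3 of 10 stromal genes at an unadjusted p under 0.05, beside 8.92% of all probe sets). The part of these cells in the rises was not tested. At 0.7 ppm and 5 days all 10 genes had means above the same air rats (median +0.21), with 0 called (0 unadjusted, against 2.45% of all) and 0.00644% of all called. At 6 ppm and 5 days Lyve1 differed by +0.73 and Mrc1 by +0.59. At 2 ppm and 8 days Cd163 differed by −0.10, with 0 called (0 unadjusted, against 4.24% of all) and 0% of all called.

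**Figure D4:**
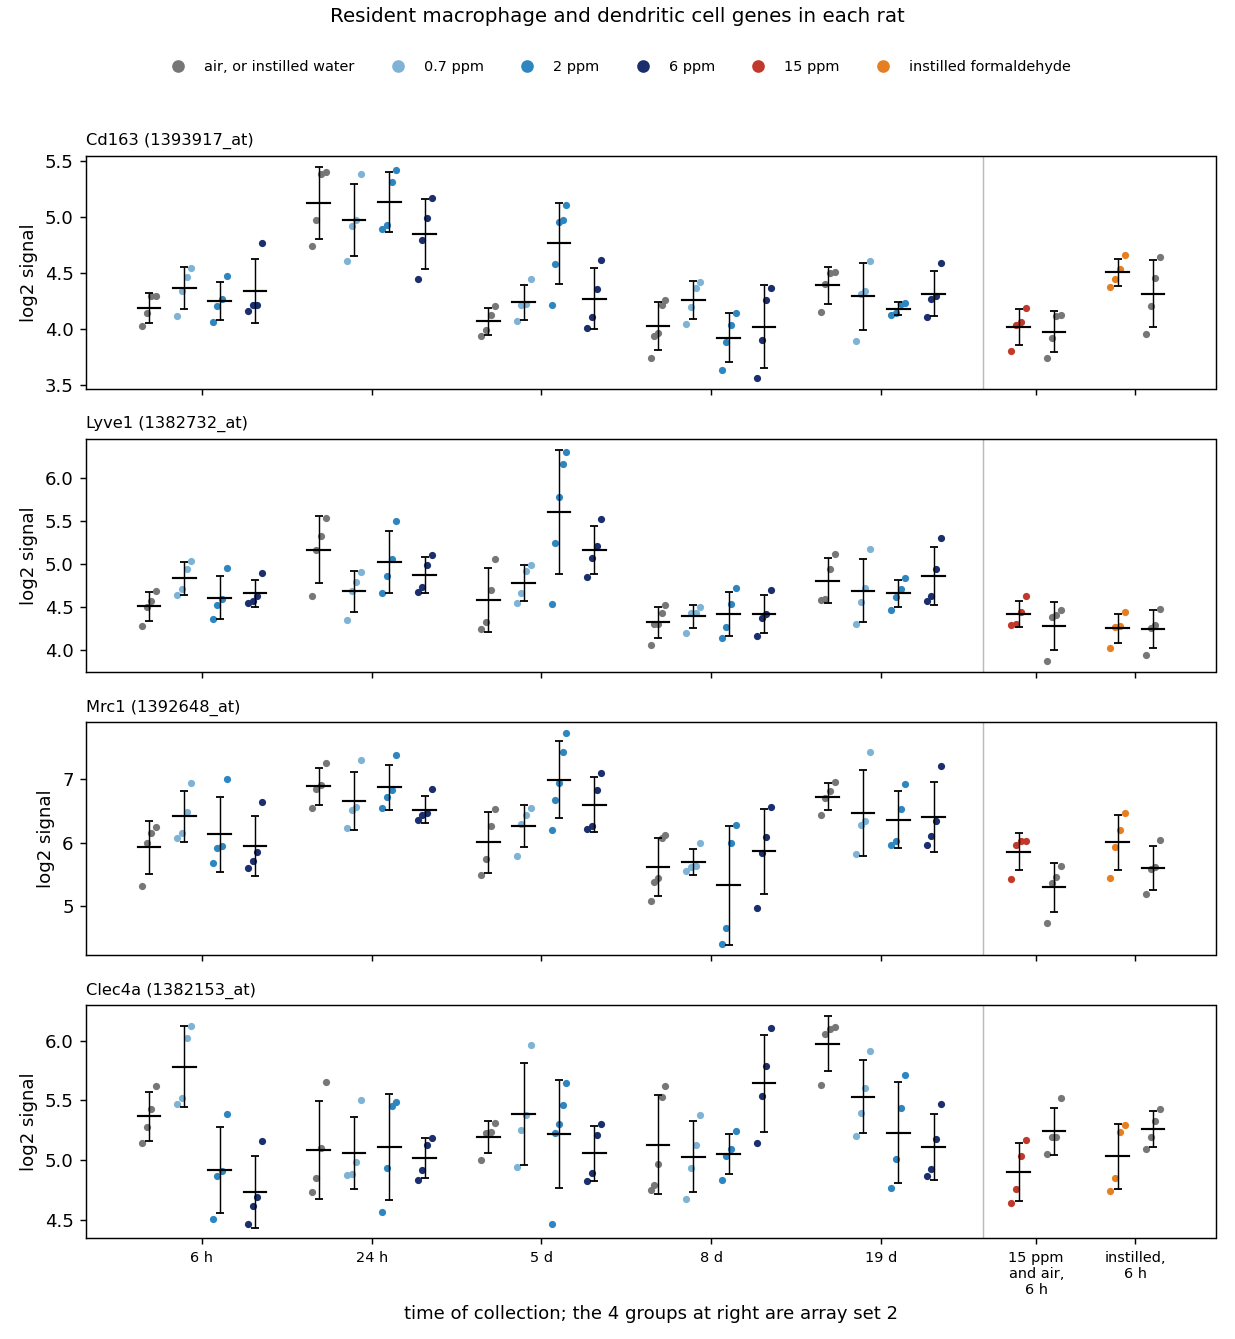
Log2 signal of Cd163, Lyve1 (probe set 1382732_at), Mrc1 and Clec4a in each rat (points) by time and dose, with the group mean and SD (black bars), laid out as for the class II genes. At 5 days the 5 rats at 2 ppm reach 5.10 for Cd163 and 6.30 for Lyve1, and at 24 h all groups are high for Cd163, air included.

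Cd68 rose after instilled formaldehyde, and RT1-Da, RT1-Ba, RT1-Bb and Cd74 were not called there. Cd68 measured 7.62, 7.81, 8.01 and 8.11 after formaldehyde, against 7.12, 7.20, 7.29 and 7.35 after water, with no overlap (8.94% of all probe sets were separated upward). The change was +0.65 ± 0.20 (95% interval 0.25 to 1.05), 1.57-fold higher (adjusted p = 0.0127, limma). It was called in 7 of the 8 fits that left out 1 rat and lost without formaldehyde rat 374 (+0.58, adjusted p = 0.0588). The dim RT1-Bb probe set 1371065_at also rose, by 0.24 ± 0.09 (adjusted p = 0.0353), with overlapping groups. That call was lost without formaldehyde rat 374 (+0.14, adjusted p = 0.308), without water rat 352, 354 or 356 (adjusted p 0.0594 to 0.103), after cyclic loess (+0.17, adjusted p = 0.142) and in a fit of only these 8 arrays (adjusted p = 0.192). Thus 2 of 15 probe sets were called, where 22.2% of all were called, 9.83% higher (3 of 15 members and 33% of all at an unadjusted p under 0.05).

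RT1-Da measured 12.29, 12.56, 12.58 and 13.11 after formaldehyde, against 12.27, 12.40, 12.50 and 12.67 after water (change +0.17). Cd74 measured 12.35, 12.36, 12.40 and 13.09 after formaldehyde, against 12.26, 12.56, 12.62 and 12.77 after water (change −0.00). In both genes 1 formaldehyde rat, 372, stood above all others and the remaining 3 overlapped with water. RT1-Ba differed by +0.21, RT1-Bb by +0.09, Mrc1 by +0.40, Cd163 by +0.19, Csf1r by −0.03 and Clec4a by −0.23, and none was called.

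The lists around the members were counted after instillation, where 22.2% of all probe sets were called and 9.83% rose. In the class II pathway list 5 of 18 genes rose and 1 fell. The costimulators Cd86 (2.51-fold, adjusted p = 0.000367) and Cd40 (1.83-fold, adjusted p = 0.000231) led the rises, and Nfyc, a subunit of NF-Y, fell by 0.28. In the interferon gamma list 7 of 12 rose and 1 fell, with the chemokines Cxcl11 (15.2-fold) and Cxcl10 (13.9-fold) and the transcription factor Irf1 (2.05-fold) at the smallest p. In the macrophage list 10 of 25 rose and 0 fell, led by the Fc receptor Fcgr1a (2.53-fold), Csf2ra, a chain of the GM-CSF receptor, and Tyrobp, an adaptor of myeloid receptors. The median of that list was +0.34, against 0.02 over all probe sets. Of the 7 neutrophil genes 6 rose, with Cxcr2 5.60-fold and Csf3r 11.5-fold higher. The mean of the neutrophil list was 8.03 to 8.73 in formaldehyde rats and 6.06 to 6.69 in water rats, and that of the leukocyte list 8.76 to 9.42 in formaldehyde rats and 8.19 to 8.50 in water rats. The part of these cells in the rise of Cd68 was not tested.

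Inhaled 15 ppm for 6 h, on the same array set, gave 0 calls among the 15 probe sets in limma (1 unadjusted, as were 20.2% of all), where 8.49% of all were called. RT1-Da measured 12.01, 12.28, 12.64 and 12.69 at 15 ppm, against 12.32, 12.40, 12.43 and 12.67 in air (change −0.05, 95% interval −0.40 to 0.29). The groups overlapped fully. Cd68 measured 7.15, 7.49, 7.56 and 7.62 at 15 ppm, against 7.01, 7.08, 7.19 and 7.36 in air (change +0.29), Mrc1 differed by +0.56 and Clec4a by −0.34. The RT1-Da effect of 15 ppm exceeded that of 6 ppm by 0.68 ± 0.25 (adjusted p = 0.208) and the Cd68 effect by 0.72 ± 0.29 (adjusted p = 0.294). Of the 15 probe sets 0 were called in that difference (3 unadjusted, as were 10.3% of all), where 1.19% of all were, and array set cannot be told apart from dose in it. The difference between the 15 ppm and the instillation effects gave 0 calls (0 unadjusted, against 9.76% of all), where 0.879% of all were called.

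Controls were set against each other as well. Water instillation against air gave means above air for all 10 genes, with RT1-Da at +0.01 and Cd163 at +0.34, and 0 calls in limma (1 unadjusted, as were 10.4% of all), where 0.0129% of all were called. The air rats of array set 2 against those of set 1, both at 6 h, gave 0 calls (1 unadjusted, as were 17.3% of all), where 4.7% of all were called. Lyve1 measured 4.56, 5.00, 5.14 and 5.18 in the air rats of set 2, against 5.34, 5.51, 5.88 and 6.34 in those of set 1 (change −0.80, adjusted p = 0.223), the only 1 of 15 probe sets with separated groups, where 7.44% of all were separated downward.

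Cd163, Mrc1, Clec4a and 1 Lyve1 probe set varied with time in air alone. In the F-test of the air rats of set 1 over 5 times, 4 of 15 probe sets were called, where 11.4% of all were called (5 and 26.2% at an unadjusted p under 0.05). They were Cd163 (adjusted p = 1.75e-06), Mrc1 (adjusted p = 0.00749), Clec4a (adjusted p = 0.00995) and Lyve1 1382732_at (adjusted p = 0.0141). RT1-Da (adjusted p = 0.565), Cd68 (0.569), Csf1r (0.501) and the brighter Lyve1 probe set (0.334) were not called. Cd163 measured 4.02, 4.14, 4.29 and 4.29 in air at 6 h, 4.74, 4.97, 5.39 and 5.41 at 24 h, 3.94 to 4.20 at 5 days, 3.74 to 4.26 at 8 days and 4.15 to 4.51 at 19 days. Every air rat at 24 h lay above every air rat of the other 4 times. Over all doses, Cd163 had a median of 4.97 in the 16 rats of 24 h (4.44 to 5.42) and of 4.22 in the 66 rats of the other times of set 1 (3.56 to 5.10).

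Mrc1 averaged 5.93 in air at 6 h, 6.89 at 24 h, 6.01 at 5 days, 5.62 at 8 days and 6.73 at 19 days. In the same F-test, where 11.4% of all probe sets were called, the lists gave these counts: 9 of 12 endothelial genes (with Emcn, Pecam1 and Tek at the smallest p), 5 of 10 stromal genes (Dcn, Thy1 and Lum) and 4 of 25 macrophage genes (Stab1, F13a1 and Cybb) were called. The mean of the endothelium list was 6.88 to 7.04 in air rats of 24 h and 5.94 to 7.05 in those of the other times of set 1. The part of these cells in the air differences was not tested, and time cannot be told apart from age and from the day of collection.

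The likeness of the 10 genes was described across rats of the same group. After the mean of its group was taken from each array, the Pearson r over 98 arrays was 0.94 between RT1-Da and RT1-Ba and 0.93 between RT1-Da and Cd74, and over the 6 class II pairs it lay between 0.79 and 0.94 (median 0.86). Over the 15 pairs of macrophage and dendritic cell genes it lay between 0.35 and 0.81 (median 0.62), with Cd68 and Csf1r at 0.81, Csf1r and Mrc1 at 0.74 and Lyve1 and Mrc1 at 0.70. Over the 24 pairs across the sets it lay between 0.11 and 0.63 (median 0.33), lowest for Cd163 with RT1-Da and with Cd74 (0.11 each) and highest for RT1-Bb with Cd68 (0.63). These are descriptions of arrays that share processing and, within a rat, the same digest.

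**Figure D5:**
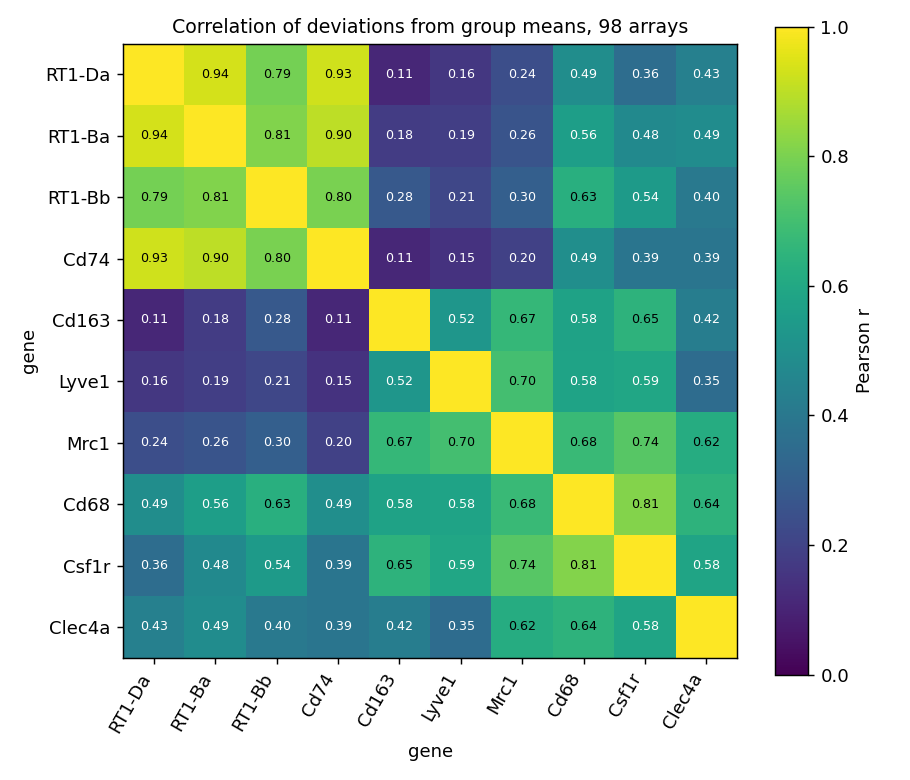
Pearson r between genes over 98 arrays of the log2 signal minus its group mean, written in each cell and coloured on a scale of 0 to 1. The block of 4 class II genes at top left holds values of 0.79 to 0.94, and the values between class II and Cd163, Lyve1 or Mrc1 are 0.11 to 0.30.

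The genes most like a member were sought by the same r among the 7103 other genes with a mean signal above the median of all probe sets. The mean of Cd163 itself (4.36) lay below that median (6.05), so genes as dim as Cd163 were not searched. For RT1-Da they were RT1-DMb (0.88), RT1-Db1 (0.87), RT1-DMa (0.79), Irf8 (0.79) and RT1-M3-1 (0.79). For Cd74 they were RT1-DMb (0.86), RT1-Db1 (0.84), Unc93b1 (0.79), RT1-M3-1 (0.77) and Rdh10 (0.75). For Csf1r they were Grn (0.82), Aif1 (0.77), Fcer1g (0.76), C1qc (0.76) and Tln1 (0.75), and for Cd163 the highest values were lower: Ms4a6bl1 (0.58), Fcer1g (0.56), Plvap (0.56), Heg1 (0.56) and Tln1 (0.55). For Cd163 none of these 7103 genes lay above 0.58, while its r was 0.67 with the member Mrc1 and 0.65 with the member Csf1r.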

How the data were processed

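The deposited values were used: 1 log2 signal per probe set and array, a scale read from the values (2.67 to 14.83) and already normalized between arrays by the authors (array medians 5.93 to 6.07). The sources used here do not give the method of summary, background correction and normalization. Of 31099 probe sets 57 controls were left out and 31042 tested, with no filter. Symbols came from the platform annotation, updated by gene identifier to RefSeq (GRCr8): 20826 probe sets had 1 symbol, 436 several and 9780 none, and only those with 1 were named.

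Fits were made in R 4.3.3 with limma 3.58.1. A single coefficient was fitted per group (24 groups, 98 arrays, 74 residual degrees of freedom), with a constant prior, two-sided tests and Benjamini-Hochberg adjustment within each of 30 comparisons. The fit was tested on simulated data. Each array was a separate rat, so no pairing was used, and the number of rats limits the precision. The treatment field of the 0.7 ppm rats at 8 days reads another dose than the rest of their labels, which was used. Only the labels give the 8-day time.

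The members and lists were chosen with earlier results of these data known. All probe sets of the 10 genes were named. Of a list, up to 3 called genes with the smallest p were named where a comparison had a called member, and for RT1-Da, Cd74, Cd163 and Csf1r the 5 most alike genes. A list level is the mean log2 signal of its measured genes. Counts were set beside all probe sets, except those of values below the lowest air rat or the air mean. Alternatives were 1 probe set per gene, cyclic loess, a filter on signal, a trended robust prior, only the arrays compared, the RNA integrity number, air of set 1 as control of 15 ppm, leaving out each rat and, added after seeing the data, leaving out each time.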

Additional observations from a re-analysis of the deposited data

Results flagged for a closer look

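In a group of 4 or 5 rats, a rat was singled out where its gap to the nearest other rat exceeded Dixon's 95% critical share of the group's range. Of 240 groups tested 13 did so, and chance gives about 1 in 20.

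The class II genes account for 7 of the 13. The instilled formaldehyde rat 372 was high for RT1-Ba (12.15, others 11.19 to 11.32), RT1-Bb (12.66, others 11.43 to 11.62) and Cd74 (13.09, others 12.35 to 12.40). Air rat 62 at 5 days was low for RT1-Ba (10.94, others 11.57 to 11.60) and RT1-Bb (11.51, others 12.10 to 12.21). RT1-Bb was 10.16 in 2 ppm rat 212 at 24 h (others 11.59 to 11.77), and Cd74 was 11.74 in 6 ppm rat 308 at 19 days (others 12.13 to 12.21).

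The other 6 were in macrophage and dendritic cell genes. Cd163 was 4.76 in 6 ppm rat 284 at 6 h (others 4.16 to 4.21), and Lyve1 was 6.51 in 0.7 ppm rat 154 at 19 days (others 5.18 to 5.34). Mrc1 was 5.43 in 15 ppm rat 337 (others 5.96 to 6.03). Cd68 was 7.32 in 2 ppm rat 222 at 8 days (others 6.77 to 6.86) and 7.19 in 6 ppm rat 290 at 24 h (others 7.15 to 7.16). Clec4a was 5.63 in air rat 77 at 19 days (others 6.05 to 6.12), a control of the called 6 ppm difference, whose value without that rat is given with it.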

How the results depend on the processing

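Counts of called probe sets among the 15 depended on the processing where few were called, and the cause was not tested. Fits with the RNA integrity covariate used the 85 arrays that have a number, so they also lack the rats without one. For 2 ppm at 5 days the count of 2 became 1 with 1 probe set per gene (Cd163) and 1 after cyclic loess (Lyve1), and 0 with the signal filter, which leaves both probe sets out, and 0 in a fit of its own arrays. For 6 ppm at 6 h the count of 1 became 0 in a fit of its own arrays and 0 with the RNA integrity covariate. For 6 ppm at 19 days the count of 1 became 0 after cyclic loess (Clec4a adjusted p = 0.0604), 0 with the filter, which leaves Clec4a out, 0 with the trended prior (adjusted p = 0.05002), 0 in its own arrays (adjusted p = 0.157) and 0 with the covariate (adjusted p = 0.0987). For instillation the count of 2 became 1 with 1 probe set per gene, 1 with the filter and 1 in its own arrays, Cd68 each time, and stayed 2 after cyclic loess with RT1-Ba 1381593_x_at in place of RT1-Bb 1371065_at. Over the 5 times at 6 ppm the count of 5 became 3 with 1 probe set per gene (RT1-Da, RT1-Ba and Cd74), 0 with the covariate, 0 without 6 h and 0 without 19 days. Without 24 h it became 3 (RT1-Da, RT1-Ba 1370822_at and Cd74, all lower). Without 5 days it became 3 as well, but with RT1-Ba 1370822_at lower and RT1-Ba 1381593_x_at and 1392334_at higher. With air of set 1 as control, 15 ppm gave 1 call in place of 0 (RT1-Ba 1381593_x_at). In its own arrays, air of set 2 against air of set 1 gave 1 in place of 0 (Lyve1). The difference between the 15 ppm and 6 ppm effects gave 1 in place of 0 in its own arrays and 1 with air of set 1 (Cd68 both times). Air across times gave 1 in place of 4 with the filter (Mrc1).

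In fits that left out 1 rat the counts were 0 to 3 for 2 ppm at 5 days, 0 to 2 for 6 ppm at 6 h, 0 to 1 for 6 ppm at 19 days, 0 to 3 for instillation, 3 to 5 for 6 ppm over the 5 times and 3 to 4 for air across times. No called value changed sign under these alternatives. Of 9990 recomputed single values, 79 lost a call and 10 gained one. Nearly all of the 9990 had no call in the main fit and so none to lose, and the 79 is therefore not a rate of lost calls. How often the calls of the dose comparisons were lost is given with each of them. No paired analysis was possible because every rat was measured once, in 1 group. Groups of 4 or 5 rats and the absence of detection calls limit what dim probe sets such as those of Cd163 and Lyve1 can show.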

Other observations

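At 0.7 ppm and 6 h, 8 of the 10 genes had means above air, with Lyve1 at +0.51, Mrc1 at +0.49 and Clec4a at +0.42 and a median of 0.34 over the 6 macrophage and dendritic cell genes, while the 4 class II genes had a median of −0.01. Clec4a measured between 5.47 and 6.12 in those 0.7 ppm rats and between 5.14 and 5.62 in the air rats. None was called. At 24 h the 10 genes lay close to air at 2 ppm, between −0.26 (Lyve1) and +0.07 (RT1-Da), with 0 called (0 at an unadjusted p under 0.05).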
